A study of Homo sapiens with 18 samples.

Results

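Ribosome footprints from the membrane fraction of UFSP2-KO cells were compared with those of WT cells, using the 4 membrane libraries of these lines among the 18 libraries of the study. UFM1 is a small ubiquitin-like modifier that is attached to target proteins, and UFSP2 is a protease that takes UFM1 off again. A known target is the ribosomal protein RPL26, which lies on the large subunit near the place where a ribosome docks on the translocon of the endoplasmic reticulum (ER), the organelle on whose surface secreted and membrane proteins are made. Ribosome profiling sequences the stretches of mRNA that ribosomes shield from nuclease, so a footprint count per transcript reflects how many ribosomes were caught on it. In GRCh38.p14 with the RefSeq annotation, the UFSP2 gene lies on chromosome 4 from 185399537 to 185425964, UFM1 on chromosome 13 from 38349851 to 38363619 and RPL26 on chromosome 17 from 8377516 to 8383193.

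UFSP2-KO was a clonal HEK293 line made with Cas9 and a guide named sgUFSP2. UFM1-KO was a clonal line made in the same way with sgUFM1, and WT was HEK293, a human embryonic kidney line, without treatment. Each knockout was 1 line, so the knockout and any other property of the clone cannot be told apart. All lines were grown in DMEM with serum. Digitonin was used first to release cytosol, and the pellet was then lysed with Triton to give the membrane fraction. Footprints were cut with RNase I, and mRNA was sequenced from whole-cell lysate after removal of ribosomal RNA. Each of the 9 groups of line and fraction held 2 libraries, a and b, and the labels do not say that they came from separate cultures, so p-values measure only the spread between these libraries.

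The membrane libraries held 2874937 and 4232842 counts in UFSP2-KO, and 3893984 and 11388755 in WT. Of 26679 transcripts listed, 21223 had a count in some footprint library. A read shared by several isoforms was counted for each of them, so transcripts with identical counts in all footprint libraries were merged into 14377 features, of which 11065 had enough counts to be tested. A feature is therefore not a gene, isoforms that share most of their reads remain separate features, and near-identical gene copies may share reads. Levels are given as CPM, counts scaled to library size with edgeR's normalization factors. Log2 levels of libraries a and b correlated with Pearson's r of 0.97 in UFSP2-KO and 0.979 in WT across features, and their counts differed beyond sampling noise in both groups, with a chi-square per degree of freedom of 3.52 and 4.83. None of the transcript IDs could be paired with a gene name, so features are described by coding length, fraction and mRNA level. For the same reason the knockout of UFSP2, the identity of the line and the purity of the fraction were not checked from marker genes. Coding length throughout is the deposited value per transcript, taken to be codons of coding sequence with the ends trimmed. Full lengths would then be longer than the values given.

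In the membrane fraction, 580 features rose and 652 fell in UFSP2-KO relative to WT by edgeR's quasi-likelihood test at a Benjamini-Hochberg adjusted p under 0.05. The 1232 called features were 11.1% of the 11065 tested, with 5.24% called higher and 5.89% called lower. The median log2 change over all tested features was 0.01. With 1 library left out, the count dropped to 531 without UFSP2-KO library a, to 439 without UFSP2-KO library b, to 562 without WT library a and to 407 without WT library b. The balance of rises and falls depended on the scaling and the libraries: it was 494 and 776 with scaling by library size alone, 641 and 629 with DESeq2's size factors in edgeR, 224 and 338 without WT library a, and 139 and 268 without WT library b. DESeq2 called 506. Fits that held only the 4 membrane libraries of these lines, or only the 6 membrane libraries of all lines, called 2123 and 2088 features.

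The median rise was 0.98 on the log2 scale, or 1.98-fold, with quartiles of 0.82 and 1.32 and the smallest called rise at 0.48. The median fall was 2.26-fold, a log2 change of -1.17, and the smallest called fall was at -0.60. Of the rises, 283 of 580 (48.8%) exceeded 2-fold, 48 exceeded 4-fold and 9 exceeded 16-fold. Of the falls, 433 of 652 (66.4%) exceeded 2-fold, 114 exceeded 4-fold and 36 exceeded 16-fold by the fitted value. Of the falls, 14 had 0 counts in both UFSP2-KO libraries, and their fitted size is no bound. With these set at a floor of 3 counts over the group, 23 falls exceeded 16-fold and the median fall was the same. Sizes of called changes depend on the depth needed for a call and were not tested against each other.

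**Figure D1:**
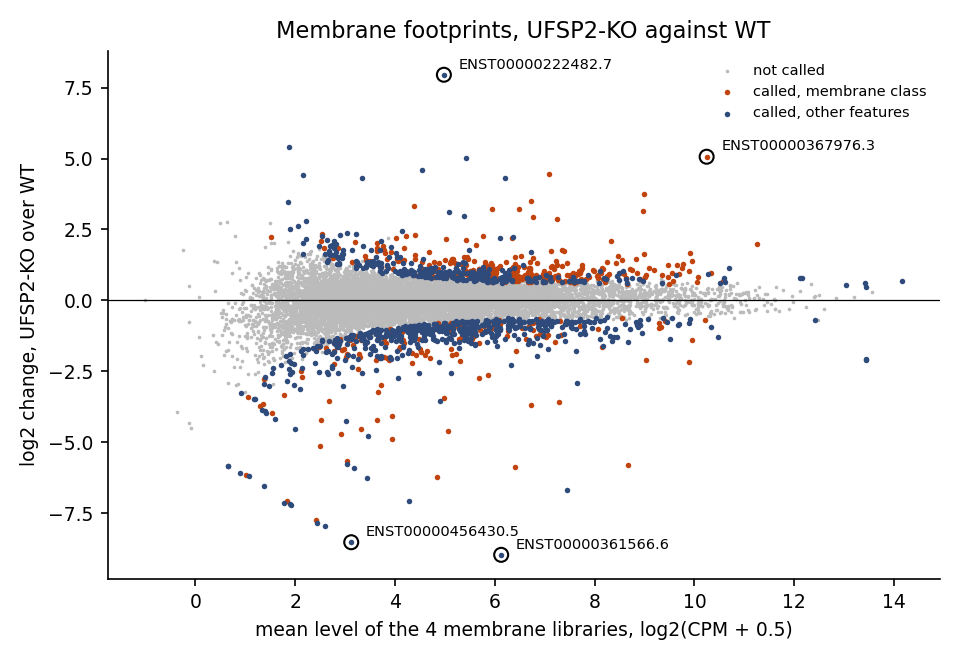
Log2 change of membrane footprints, UFSP2-KO over WT, for each tested feature (vertical axis) against its mean level in the 4 membrane libraries as log2(CPM + 0.5) (horizontal axis); colours mark called features of the membrane class, called other features and features not called by edgeR, and circles mark the 4 transcripts named by ID. The 580 rises and 652 falls lie on both sides of 0, and by the fitted value 36 falls and 9 rises exceeded 16-fold.

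The transcript with the largest rise, ENST00000222482.7, has a coding length of 401 codons. It had 68.7 and 55.3 CPM in the UFSP2-KO membrane libraries (121 and 139 counts), 0.185 and 0 CPM in UFM1-KO, and 0 and 0.279 CPM in WT (0 and 2 counts). Both UFSP2-KO libraries stood far above all libraries of the other lines, which were at or near 0. The membrane level was 292-fold higher in UFSP2-KO than in WT, with a 95% exact interval of 80.1 to 2427 that covers counting error only, and the fitted log2 change was 7.95 ± 0.53 (SE, edgeR adjusted p = 1.56e-10). Its mRNA was at 23.7 and 21.3 CPM in UFSP2-KO and at 0.876 and 0.0889 CPM in WT, a log2 change of 5.58 ± 0.65 (SE, edgeR adjusted p = 5.59e-05). In the cytosol it had 0 and 2 counts in UFSP2-KO and none in WT.

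The other ID given among the rises, ENST00000367976.3, is a transcript of 329 codons whose footprints lay mostly in the membrane fraction. Its membrane level was 2592 and 2116 CPM in UFSP2-KO, 10.9 and 16.6 CPM in UFM1-KO, and 96.8 and 47.6 CPM in WT. The 3 lines did not overlap, with UFSP2-KO highest and UFM1-KO lowest. The log2 change against WT was 5.06 ± 0.34 (SE, edgeR adjusted p = 6.1e-11), and that against UFM1-KO was 7.50. Its mRNA was at 207 and 178 CPM in UFSP2-KO, 4.28 and 1.88 CPM in UFM1-KO, and 11.2 and 7.69 CPM in WT, and the mRNA rose by 4.35 ± 0.33 on the log2 scale (SE). The membrane change less the mRNA change was 0.68 ± 0.47 (SE, edgeR adjusted p = 0.702).

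Among the falls, ENST00000361566.6, a transcript of 380 codons, had 1 membrane count in UFSP2-KO library a and 0 in library b (0.568 and 0 CPM). It was at 260 and 229 CPM in UFM1-KO and at 131 and 146 CPM in WT. It was 608-fold lower in UFSP2-KO than in WT, with an exact counting interval of 109 to 24044, and the fitted log2 change was -8.97 ± 0.50 (SE, edgeR adjusted p = 1.39e-12). The fall was also present in the cytosol, with 3.55 and 1.47 CPM in UFSP2-KO against 114 and 118 CPM in WT, and in mRNA, with 0.231 and 0.0755 CPM in UFSP2-KO against 50.8 and 63.4 CPM in WT. ENST00000456430.5, a transcript of 1216 codons, had 0 counts in both UFSP2-KO membrane libraries, 17.2 and 19.3 CPM in UFM1-KO, and 19.2 and 13.7 CPM in WT. Set against a floor of 3 counts over the group, it was at least 21.5-fold lower in UFSP2-KO (edgeR adjusted p = 6.81e-07). It was also at 0 in both UFSP2-KO cytosol and both UFSP2-KO mRNA libraries, against 16.0 and 12.7 CPM in WT cytosol and 10.8 and 13.9 CPM in WT mRNA.

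**Figure D2:**
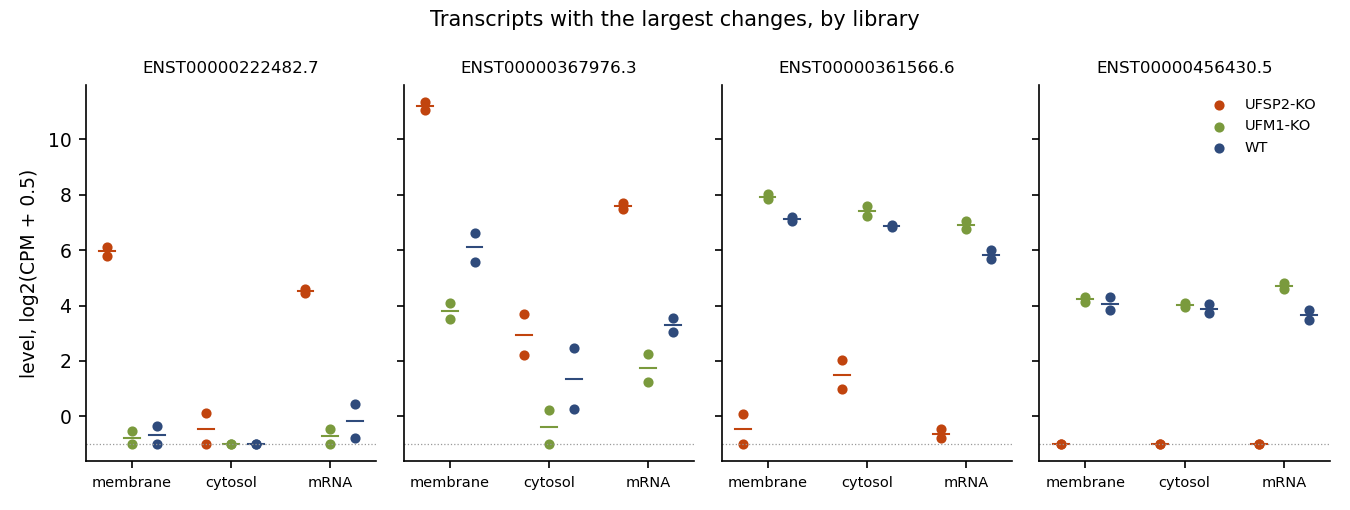
Level of the 4 transcripts named by ID as log2(CPM + 0.5) (vertical axis) in membrane footprints, cytosol footprints and mRNA (horizontal axis), with 1 point per library of UFSP2-KO, UFM1-KO and WT; the dotted line marks 0 CPM. The risers stand high in UFSP2-KO membrane and mRNA (23.7 and 21.3 CPM, and 207 and 178 CPM, in mRNA). The fallers are at or near 0 in the UFSP2-KO membrane and mRNA libraries. In UFSP2-KO cytosol, ENST00000361566.6 was at 3.55 and 1.47 CPM and ENST00000456430.5 at 0.

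ENST00000361566.6 and ENST00000456430.5 belong to a set of 11 features that had at least 10 CPM in both WT membrane libraries and at most 2 counts in each UFSP2-KO membrane library. They ranged from 162 to 1467 codons, with a median of 507, and their mean WT level had a median of 18.1 CPM, with the highest library at 146 CPM. The mRNA of all 11 was called lower in UFSP2-KO, with a median fitted log2 change of -5.89 and the change nearest to 0 at -2.67. In UFM1-KO, 10 of the 11 had at least 10 CPM in both membrane libraries, and the eleventh, of 270 codons, had 9.98 and 14.5 CPM. Under the same thresholds with the lines exchanged, 1 feature met them, ENST00000222482.7. The limit of 2 counts was not matched for depth. It stood at 1.14 and 0.796 CPM in UFSP2-KO libraries a and b, and at 0.279 CPM in WT library b, the deepest. The numbers of features in the 2 directions are therefore not comparable. These sets were chosen on the membrane levels and were given no test of their own.

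Features were next grouped by where their footprints lay. The membrane class held the 2402 features whose normalised footprint level in UFM1-KO cells was over 2-fold higher at membranes than in cytosol (edgeR adjusted p under 0.05). These libraries are not part of the UFSP2-KO and WT comparison, although all footprint libraries shared the filter, the scaling and the estimate of spread. In the class, 298 features (12.4%) rose and 140 (5.83%) fell. Of the 8663 other features, 282 (3.26%) rose and 512 (5.91%) fell. The share that fell was thus close in both sets to the 5.89% of all tested features, and the share that rose was above the overall 5.24% in the class and below it elsewhere. Class rises and falls numbered 156 and 77 without UFSP2-KO library a, 127 and 65 without UFSP2-KO library b, 141 and 80 without WT library a, and 95 and 80 without WT library b. Rises and falls of other features numbered 98 and 200, 87 and 160, 83 and 258, and 44 and 188 with the same libraries left out. The median log2 change was 0.19 in the class and -0.04 among the other features, and for single pairs of a UFSP2-KO and a WT library it ranged from 0.12 to 0.25 and from -0.053 to -0.028.

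Across bins of the membrane-to-cytosol ratio, the change was not confined to one end of the class. Of the 4967 features with a log2 ratio from -1 to 0, 133 (2.68%) rose and 308 fell, with a median change of -0.07. The 839 features with a log2 ratio from 5 to 7 had 138 rises (16.4%) and 38 falls, with a median of 0.25, between 0.19 and 0.291 over the library pairs. In the 490 features with a log2 ratio over 7, 64 rose and 43 fell, with a median of 0.20 and a range over pairs of 0.078 to 0.272. The 513 features with a ratio from 1 to 3 had 38 rises and 29 falls, and a median of 0.10.

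Class features held 28.8% and 29.9% of the membrane footprints of UFSP2-KO, 27.6% and 28.2% of those of UFM1-KO, and 25.8% and 25.1% of those of WT, over tested features. The class was chosen on the UFM1-KO libraries, which can raise their own shares, so these cannot be compared with those of the other lines. The UFSP2-KO and WT libraries did not overlap. The means were 29.4% ± 0.783 in UFSP2-KO and 25.4% ± 0.529 in WT (SD, n = 2 each), a difference of 3.95 percentage points with a two-sided exact permutation p of 0.333, the smallest that 2 libraries against 2 can give. Reads shared by isoforms enter such a share more than once. The difference was the sum of gains of 6.48 points over 1443 class features and losses summing to -2.53 points over 959, and the 5 features with the largest gains gave 0.821 points. The largest single gain, 0.263 points, came from a feature of 429 codons with 3756 and 4072 CPM in UFSP2-KO against 1027 and 947 CPM in WT (log2 change 1.99 ± 0.24, SE, edgeR adjusted p = 2.25e-06). The next was ENST00000367976.3 with 0.207 points. The third, a feature of 397 codons, gave 0.177 points at 6038 and 6416 CPM in UFSP2-KO against 4264 and 4032 CPM in WT, and did not pass the test (log2 change 0.59, edgeR adjusted p = 0.17).

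The largest loss within the class, a feature of 494 codons at 4232 and 4456 CPM in UFSP2-KO against 8021 and 6038 CPM in WT, did not pass the test either (edgeR adjusted p = 0.298). The second largest loss did pass it: a feature of 621 codons had 340 and 357 CPM in UFSP2-KO against 1788 and 1330 CPM in WT, a log2 change of -2.16 (edgeR adjusted p = 1.56e-08). Split by call, class features that rose held 6.35% and 6.50% of UFSP2-KO membrane footprints, a mean of 3.42 points more than in WT. Class features that fell held 0.661% in UFSP2-KO and 1.68% in WT. Class features that were not called held 22.3% in UFSP2-KO and 20.8% in WT, so 1.55 of the 3.95 points lay in features without a call of their own. Outside the class, features that fell held 3.69% of UFSP2-KO and 9.20% of WT membrane footprints, a difference of -5.52 points, which exceeded in size the 3.39 points gained by those that rose. The called sets were chosen on the same counts, so these shares describe them and carry no test.

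**Figure D3:**
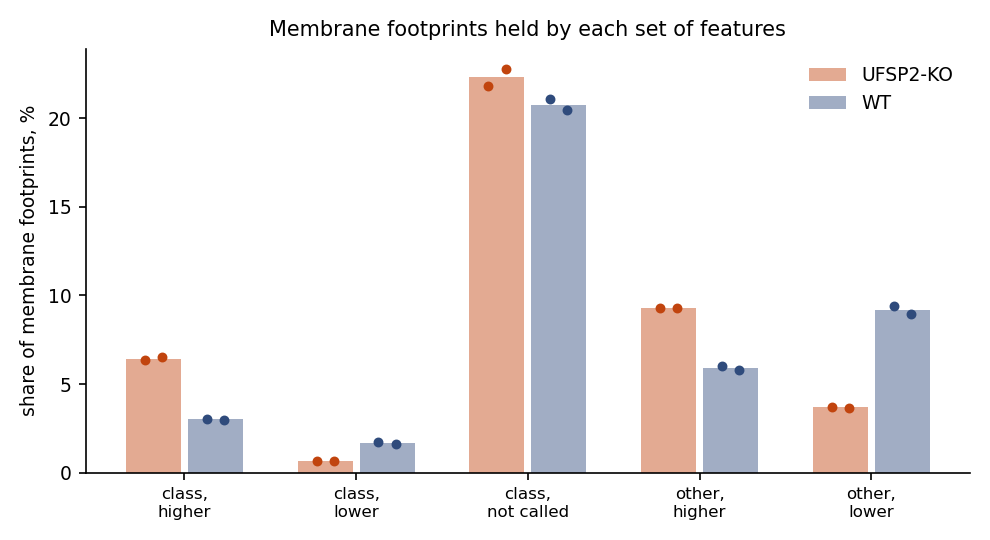
Share of membrane footprints in percent (vertical axis, from 0) held by sets of features (horizontal axis). Bars are means of 2 libraries and points are single libraries, with UFSP2-KO left of WT. The sets are class features called higher, called lower or not called, and other features called higher or called lower. Other features that were not called are left out. Class features called higher held 6.43% in UFSP2-KO, 3.42 points more than in WT, and other features called lower held 3.69% in UFSP2-KO and 9.20% in WT.

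Features were also grouped by coding length, and short features fell more often than they rose while long ones rose more often than they fell. Of all tested features, 5.24% rose and 5.89% fell in UFSP2-KO. Of the 423 features of up to 100 codons, 3 (0.709%) rose and 55 (13.0%) fell. Of the 1339 features over 100 and up to 200 codons, 49 (3.66%) rose and 111 (8.29%) fell. At the other end, 118 (6.30%) of 1872 features over 800 and up to 1600 codons rose and 75 (4.01%) fell, which is nearer the overall shares. Of 536 features above 1600 codons, 42 (7.84%) rose and 16 (2.99%) fell. With UFSP2-KO library a, UFSP2-KO library b, WT library a or WT library b left out, rises and falls up to 100 codons numbered 2 and 21, 1 and 18, 1 and 29, or 0 and 19, and those above 1600 codons 16 and 6, 17 and 5, 17 and 9, or 11 and 7. The median log2 change was -0.35 in the shortest bin, up to 100 codons. It was -0.14 in the bin up to 200, -0.03 up to 400, 0.06 up to 800, 0.10 up to 1600 and 0.23 above 1600 codons. Over single library pairs it ranged from -0.382 to -0.251 in the shortest bin and from 0.143 to 0.256 in the longest. Within the class the medians of the shortest and longest bins were -0.03 and 0.24, and among the other features they were -0.39 and 0.20.

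The median of features of up to 100 codons less that of features above 800 codons was -0.336, -0.479, -0.371 and -0.505 in the 4 pairs of a UFSP2-KO and a WT membrane library. The same quantity was -0.017 between the UFSP2-KO membrane libraries b and a and 0.104 between the WT membrane libraries b and a. The 4 differences between lines were larger in size than either difference between replicates. The 4 pairs share libraries, so these differences are not independent. In the pairs of a UFM1-KO and a WT membrane library it was 0.312, 0.182, 0.087 and -0.004. In the cytosol the UFSP2-KO and WT pairs gave 0.066, -0.354, 0.291 and -0.197, with no common sign. The cytosolic median above 800 codons was exactly 0 in both pairs with WT library a, the footprint library with the fewest counts. The effect of low counts on these values was not tested. In mRNA the UFSP2-KO pairs with WT library a gave 0.209 and 0.059, and those with WT library b gave 0.544 and 0.433. All were of opposite sign to the membrane values. Their size differed by WT library, and the difference between mRNA replicates was not measured. The mRNA values were taken over another set, 566 short and 2944 long features, against 423 and 2408 in footprints. The median mRNA change was 0.23 up to 100 codons, with 12 rises and 7 falls among 398 features, and -0.25 above 1600 codons, with 8 rises and 66 falls among 530. Over all 10828 features tested in both assays, 297 mRNA changes were rises and 526 were falls. Features of up to 100 codons held 2.97% and 2.90% of UFSP2-KO membrane footprints, 3.77% and 3.55% in UFM1-KO, and 3.41% and 3.45% in WT. For features above 800 codons the shares were 19.0% and 19.7% for UFSP2-KO, 16.2% and 17.3% for UFM1-KO, and 17.5% and 17.8% for WT. Length was taken from the deposited tables, and whether recovery of footprints by length differed between libraries was not tested. When each library's trend over coding length was removed, 28 features of up to 100 codons were called higher and 24 lower, against 22 higher and 31 lower above 1600 codons, while the class had 331 rises and 126 falls. That step takes out length differences by construction, so the counts by length are no test of them.

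**Figure D4:**
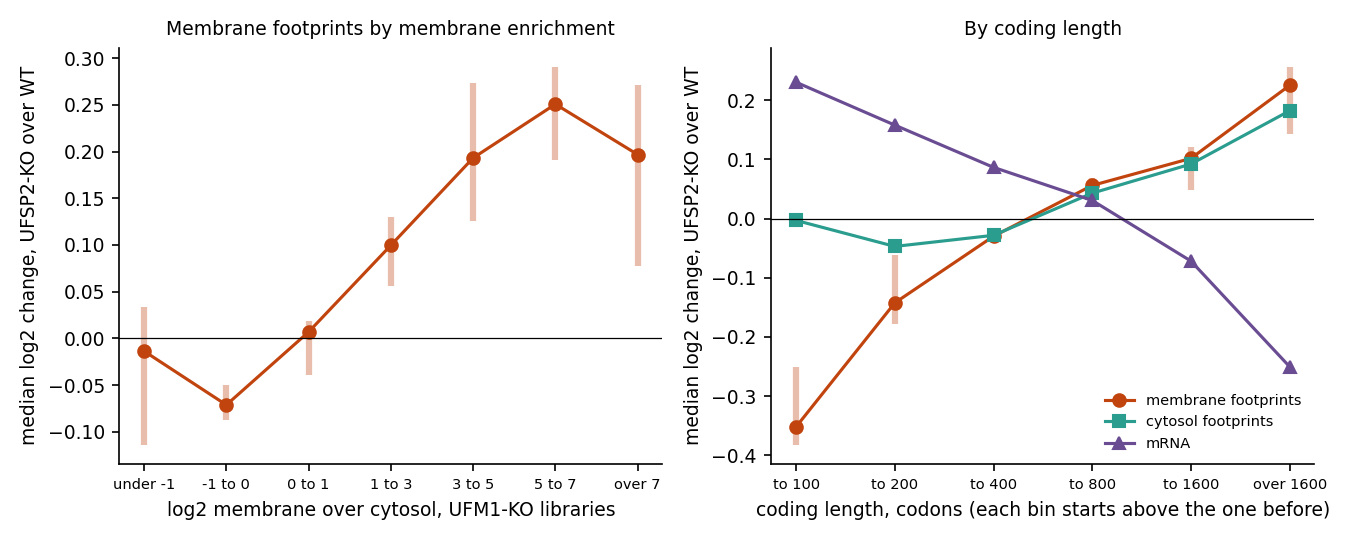
Median log2 change of membrane footprints, UFSP2-KO over WT (vertical axes), by log2 membrane-to-cytosol ratio in UFM1-KO libraries (left) and by coding length in codons, beside cytosol footprints and mRNA (right); points are medians and vertical bars span the 4 library pairs of the membrane fraction. The medians rise to 0.25 at a ratio of 5 to 7, and over length from -0.35 up to 100 codons to 0.23 above 1600 codons.

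Calls were set beside the mRNA of whole cells. In mRNA, 332 features rose and 666 fell in UFSP2-KO relative to WT, 7.18% of the 13900 tested. With scaling by library size alone the median mRNA change was -0.145 and 15.4% of calls were higher, against 33.3% with the default scaling. The mRNA count without WT library b was 194, without WT library a 550 and without UFSP2-KO library b 568. Of the 1209 called membrane features whose mRNA was tested, 1109 (91.7%) had an mRNA change of the same sign, against 7397 of all 10828 features tested in both (68.3%). The mRNA passed the test in the same direction for 368 (30.4%) and in the opposite direction for 0. Of all 10828 features, 783 (7.23%) passed in the direction of their membrane change and 40 in the opposite one. Both contrasts compare the same lines but share no library. Across the 10828 features the membrane and mRNA changes correlated with Pearson's r of 0.66 and Spearman's rho of 0.521, a description over features that share isoform reads.

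Class features that fell in the membrane fraction had a median log2 change of -1.50 in footprints and -1.34 in mRNA, and 87 of 139 (62.6%) were called lower in mRNA. Class features that rose had medians of 1.01 in footprints and 0.58 in mRNA, and 86 of 296 were called higher in mRNA. Other features that fell had medians of -1.12 in footprints and -0.55 in mRNA, with 128 of 498 (25.7%) called lower, and other features that rose had medians of 0.97 and 0.51, with 67 of 276 called higher. Over all called features, the footprint change was larger in size than the mRNA change in 1042 of 1209 (86.2%). The features were chosen on the footprint change, so this share is no test of a difference between the assays. In mRNA itself, the class as a whole had a median change of 0.04 over 2352 features, with 111 rises and 177 falls, and the other 8476 features had a median of 0.04, with 186 rises and 349 falls.

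**Figure D5:**
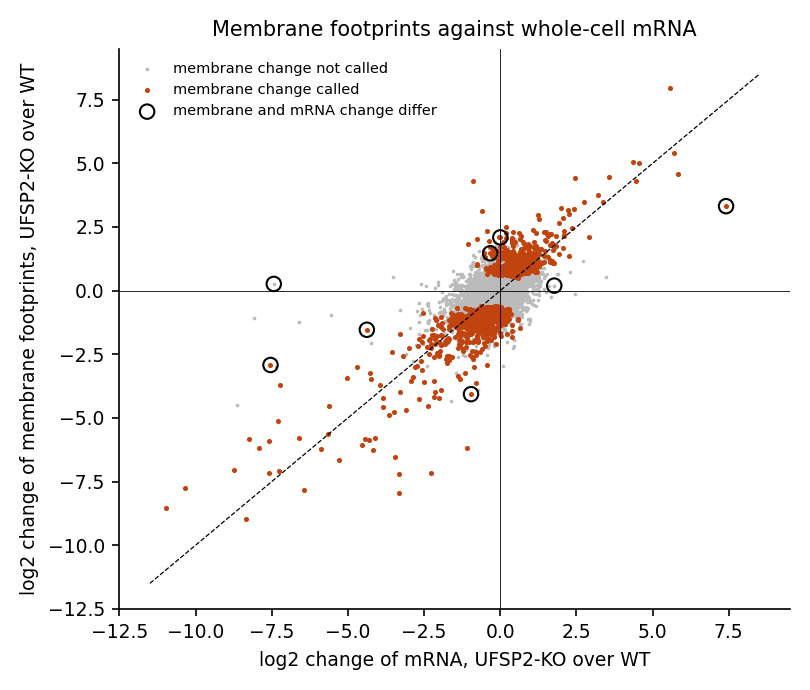
Log2 change of membrane footprints (vertical axis) against log2 change of whole-cell mRNA (horizontal axis), UFSP2-KO over WT, for the features tested in both assays. Colours mark whether the membrane change was called, and the dashed line marks equal change. Circles mark features whose membrane and mRNA changes differed, except those of 453 and 1091 codons, which are not circled. Of the called features 1109 of 1209 lie in the quadrants of equal sign, and Pearson's r over all 10828 features was 0.66.

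The difference between the footprint change and the mRNA change was tested directly in a joint model. It passed the test for 10 features, 0.0792% of 12629, with a footprint change above the mRNA change in 6 and below it in 4, signs included, while 1110 had an unadjusted p under 0.05. Leaving out 1 library gave 2 to 34 such features, DESeq2 gave 23 and fitting without the filter on low counts gave 33. A feature of 109 codons had membrane levels of 88.1 and 84.0 CPM in UFSP2-KO against 75.4 and 69.4 CPM in WT, and its mRNA was at 0.0695 and 0 CPM in UFSP2-KO and at 6.75 and 9.13 CPM in WT (difference 7.45 ± 0.59, SE, edgeR adjusted p = 6.09e-09). A feature of 116 codons had 61.1 and 46.3 CPM in UFSP2-KO membranes against 382 and 430 CPM in WT membranes, with mRNA at 0.869 and 0.39 CPM in UFSP2-KO against 115 and 130 CPM in WT. A second feature of 116 codons showed the same order, with mRNA at 1.77 and 0.836 CPM in UFSP2-KO and at 26.2 and 28.9 CPM in WT. In all 3 short features the mRNA was nearly gone from UFSP2-KO while footprints were not. Whether their footprints include reads of near-identical copies was not tested.

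Both long and short class features were among the 10. A feature of 5870 codons had 533 and 659 CPM in UFSP2-KO membranes against 147 and 136 CPM in WT membranes, with overlapping mRNA levels of 54.3 and 69.2 CPM in UFSP2-KO against 40.1 and 80.7 CPM in WT (difference 2.05 ± 0.35, SE, edgeR adjusted p = 0.00635). A feature of 123 codons had 777 and 763 CPM in UFSP2-KO membranes against 290 and 271 CPM in WT membranes, with mRNA of 60.4 and 46.4 CPM in UFSP2-KO against 62.5 and 69.1 CPM in WT (difference 1.76 ± 0.28, SE, edgeR adjusted p = 0.00262). In both, membrane footprints rose, and the mRNA of UFSP2-KO overlapped that of WT or lay below it. A class feature of 1145 codons had 1.31 and 2.27 CPM in UFSP2-KO membranes against 35.6 and 30.1 CPM in WT membranes, with mRNA of 1.56 and 3.06 CPM in UFSP2-KO against 4.10 and 4.58 CPM in WT. In a class feature of 412 codons the mRNA change was the larger: mRNA was at 162 and 110 CPM in UFSP2-KO against 1.29 and 0.322 CPM in WT, and membrane footprints were at 44.0 and 41.3 CPM in UFSP2-KO against 4.74 and 4.03 CPM in WT (difference -4.11 ± 0.59, SE, edgeR adjusted p = 0.000575). A feature of 264 codons outside the class had mRNA of 176 and 145 CPM in UFSP2-KO against 50.0 and 42.3 CPM in WT, with membrane footprints at 36.8 and 36.8 CPM in UFSP2-KO and at 33.2 and 31.7 CPM in WT. The remaining features, of 453 and 1091 codons, had low counts, with edgeR adjusted p of 0.0472 and 0.0417.

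Cytosolic footprints of the same lines were tested in the same model. By edgeR, 165 cytosolic features rose and 277 fell, 3.99% of 11065, in libraries of 1587853 and 5383754 counts for UFSP2-KO and 1393032 and 6666021 for WT. With 1 library left out, rises and falls numbered 116 and 158 without UFSP2-KO library a and 56 and 114 without WT library b. Without UFSP2-KO library b rises outnumbered falls, with 150 and 95. Of all cytosolic calls 37.3% were higher with the default scaling and 47.8% with DESeq2's size factors in edgeR. Of the 1232 features called in the membrane fraction, 1092 (88.6%) had a cytosolic change of the same sign, against 71.4% of all tested features. Of the called features, 294 (23.9%) passed in the cytosol in the same direction and 0 in the opposite one. Of all 11065 tested features, 429 (3.88%) passed in the direction of their membrane change and 15 in the opposite one. The 2402 class features had a median cytosolic change of 0.32, with 50 rises and 10 falls, and the 8663 other features had a median of -0.03, with 115 rises and 267 falls. Class features were chosen as lower in cytosol than at membranes, and some had few or no cytosolic counts. Fitted cytosolic changes of the class are therefore uncertain in size and sign, and its median was not tested against the membrane one. Of the 140 class features that fell in the membrane fraction, 79 had a cytosolic change of the same sign.

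The membrane change less the cytosolic change passed the test for 1 feature, 0.00904% of 11065, while 487 had an unadjusted p under 0.05 and leaving out 1 library gave 0 to 9 calls. A replicate block gave 6, DESeq2 gave 2 and fitting without the low-count filter gave 7. That feature, of 232 codons and in the class, had 15.9 and 13.1 CPM in UFSP2-KO membranes against 816 and 780 CPM in WT membranes. Its cytosolic levels overlapped, at 7.10 and 1.47 CPM in UFSP2-KO against 8.99 and 3.22 CPM in WT, and the difference of changes was -5.20 ± 0.80 (SE, edgeR adjusted p = 0.00791).

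Set against the membrane footprints of UFM1-KO, in which the modifier itself is missing, UFSP2-KO had 1134 features higher and 1238 lower by edgeR, 21.4% of 11065. DESeq2 called 1173 features, and leaving out 1 library gave 1098 to 1573. This comparison and that with WT use the same UFSP2-KO libraries, so their calls are not independent. The UFM1-KO libraries also gave a measure of depth that the UFSP2-KO and WT libraries do not enter. Of the 1708 features above 100 CPM there, 122 (7.14%) rose and 180 (10.5%) fell in UFSP2-KO relative to WT. Of the 1263 below 5 CPM, 46 (3.64%) rose and 14 (1.11%) fell. The low-count filter used all footprint libraries, so features low in UFM1-KO could pass it through counts in UFSP2-KO or WT. Counts of calls in the lowest bin depend on that filter and carry no reading about depth.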

How the data were processed

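The authors deposited raw counts per versioned Ensembl transcript for each library, with a second column per transcript. The aligner TopHat2 2.1.1 and the GRCh38 build are named in the submitters' processing notes. How reads were counted is not given in the sources used here. That column, without a header, was taken to be codons of coding sequence with the ends trimmed.

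Transcripts whose counts were identical across an assay were merged. Features were tested by quasi-likelihood in edgeR 4.0.16 (R 4.3.3; filterByExpr, minimum count 10; TMM scaling; group means). The 12 footprint libraries shared a model, the 6 mRNA libraries had their own, and a joint model held both. Calls are two-sided at a Benjamini-Hochberg adjusted p under 0.05. Alternatives, DESeq2 1.42.0 among them, are described at the end. Shares were compared with an exact permutation test, and exact 95% intervals cover counting error only.

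The plan assumed genes, but 0 transcripts could be paired with a gene name, so the gene lists, the line's marker genes and the targeted gene were not analysed here. For that case the rule for names allowed at most 2 transcript IDs that rose and 2 that fell. These were of the largest fitted changes with at least 10 CPM in the higher group and no overlap. ENST00000456430.5 was ranked by its fitted value, which is no bound at 0 counts, so other falls may be larger. The rule also took in all features called in the tests of a difference between changes. The members and lists were chosen with earlier results of these data known.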

Additional observations from a re-analysis of the deposited data

Results flagged for a closer look

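Effects that differed between fractions, assays or lines are collected here. The membrane change less the cytosolic change, UFSP2-KO against WT, passed edgeR's test for 1 feature. The membrane change less the mRNA change passed it for 10 features. Membrane footprints of UFSP2-KO and UFM1-KO, which were each also set against WT, differed for 2372 features.

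For features of up to 100 codons less features above 800 codons, the median log2 change of UFSP2-KO over WT averaged -0.4228 over the 4 library pairs in membrane footprints and 0.3109 over the 4 pairs in mRNA. All pairs of an assay had the same sign, opposite to that of the other assay, but the pairs share libraries. The mRNA values differed by WT library, with 0.209 and 0.059 for library a and 0.544 and 0.433 for library b. The difference between the assays was not tested. Each assay used its own tested features, with 423 short and 2408 long in footprints, and 566 short and 2944 long in mRNA.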

How the results depend on the processing

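The 4 transcripts named by ID kept direction and call in all 48 refits, each of 1 transcript under 1 setting. The membrane count of 1232 became 506 with DESeq2, 2123 with the 4 membrane libraries of UFSP2-KO and WT alone, 2088 with the 6 membrane libraries, and 407 to 562 with 1 library left out. The cytosol count of 442 became 852 with a replicate block, 241 with DESeq2 and 170 to 449 with 1 library left out. The mRNA count of 998 ranged from 194 to 1352 with 1 library left out. The membrane change less the mRNA change, called for 10 features, was called for 33 without the filter, 23 with DESeq2, 6 with the trend over coding length removed and 2 to 34 with 1 library left out. The membrane change less the cytosolic change, called for 1, was called for 7 without the filter, 6 with the replicate block, 2 with DESeq2 and 0 to 9 with 1 library left out. UFSP2-KO against UFM1-KO, 2372 calls, gave 1173 with DESeq2 and 1098 to 1573 with 1 library left out. The fitted median of features of up to 100 codons less that of features above 800 codons, -0.478, became -0.383 with DESeq2 and -0.512 to -0.332 with 1 library left out. With the length trend removed it was -0.0242, but that step takes out length differences by construction and is no check of this value. The class median less that of other features, 0.23, stayed between 0.179 and 0.28 with 1 library left out, and the class share difference of 3.95 points between 3.39 and 4.50. With a replicate block on the letters a and b the membrane count was 1810. The labels give no meaning to the letters, and the a less b differences of UFSP2-KO and WT correlated with r of 0.154 in membrane libraries, 0.288 in cytosol libraries and -0.159 in mRNA. Those of UFM1-KO membrane libraries correlated with UFSP2-KO at 0.144 and with WT at 0.135. The length trend, and the class and length medians, were chosen after seeing the data. The setting with a single feature per gene was not run, since no gene names could be had. Where a count moved, the cause was not tested.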
